A study of Mus musculus with 10 samples.

Results

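The genes described here encode plasma membrane and lysosomal carriers of amino acids, of transmitters derived from them and of related solutes. They are the entries of the deposited table whose gene symbol begins with Slc1a, Slc3a, Slc6a, Slc7a, Slc36a, Slc38a or Slc43a followed only by a number, which gave 61 genes of 55487. By family they are 7 of family 1, 2 of family 3, 19 of family 6, 15 of family 7, 4 of family 36, 11 of family 38 and 3 of family 43. Carriers of families 1, 6 and 38 mostly move their substrate with sodium, and those of family 36 mostly move it with protons. Most members of family 7 are exchangers whose light chain reaches the membrane only when joined to a heavy chain of family 3. In the ovary, granulosa cells take up amino acids and pass some of them to the oocyte through gap junctions, and the oocyte also carries transporters of its own, among them those for glycine. In many tissues the supply of amino acids is read by the kinase complex mTORC1 at the lysosome and by the kinase Gcn2, whose signal raises the translation of the factor Atf4.

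RNA was sequenced from 10 ovaries of female C57BL/6J mice, with a library for each ovary. Control mice were 8 weeks old (n = 4, numbered 31, 32, 33 and 34), and Aged (n = 3, numbered 31, 33 and 34) and Aged+CF mice (n = 3, numbered 30, 32 and 34) were 11 months old by the sample labels and 10 months old by the study's methods. Aged+CF mice had been given 200 μL of CEFFE, a cell-free liquid rich in proteins that is prepared from fat tissue, at 3 μg/μL through the tail vein every 2 days for 2 weeks, while Control and Aged mice had been given saline. All mice had also received 10 IU of PMSG, a gonadotropin that drives follicle growth, 48 h before the ovaries were taken, so that the values belong to stimulated ovaries. The comparison of Aged with Control addresses ovarian aging, and that of Aged+CF with Aged addresses the extract.

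Between 15761789 and 21318254 reads were counted per ovary, and between 52 and 56 of the 61 genes had at least 1 count in an ovary. Levels within a gene are given as CPM, the counts set against the TMM-scaled library totals, and levels between genes as the deposited FPKM, which also divides by gene length. The filter on low counts left 18956 genes of the table, among them 45 of the 61 transporter genes. They were tested in edgeR by its quasi-likelihood F statistic, with the p adjusted by Benjamini-Hochberg across the 18956 genes. A gene was called at an adjusted p under 0.05 and a fold change of at least 1.5.

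The ovaries of a group were not equally alike. The root mean square difference in log2 CPM between ovaries of the same group lay between 0.501 and 0.618 in Control and Aged+CF, whereas in Aged it was 0.728 between 31 and 33, 0.892 between 31 and 34 and 1.11 between 33 and 34. The ovary carried the markers of its main cell types in every library. The 13 oocyte markers, of which Padi6 was highest by CPM and none was at 0, summed to 464, 645, 498 and 630.2 CPM in Control, 131, 111 and 15.4 CPM in Aged and 206, 175 and 279 CPM in Aged+CF, in the order of the numbers above, and 12 of the 13 were called lower in Aged than in Control. The 9 granulosa markers, led by Inha, summed to 4989.8, 7896, 6816 and 6788 CPM in Control, 4220.5, 4421 and 3335 CPM in Aged and 4974, 2897 and 4834 CPM in Aged+CF, with none of the 9 called by edgeR in Aged vs Control, 4 at an unadjusted p under 0.05 and 2 called lower by the Wald test of DESeq2. The 8 theca and luteal markers, led by Cyp11a1, summed to 11533, 8047, 9736 and 6381 CPM in Control, 25667, 35575 and 15467 CPM in Aged and 14497, 21418 and 13701 CPM in Aged+CF, and 6 of the 8 were called higher in Aged. Another of them, Insl3, was lower in every Aged ovary than in every Control ovary (log2 fold change -1.38, edgeR adjusted p = 0.053), and DESeq2 called 1 of the 8 lower. In whole ovaries, fewer cells of a type and less RNA per cell cannot be told apart.

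Markers of other cells also differed between libraries. The 5 oviduct markers, led by Ovgp1, summed to 3.38, 3.68, 345 and 9.54 CPM in Control, 2.8, 1.55 and 290.4 CPM in Aged and 32.2, 3.16 and 7.08 CPM in Aged+CF, so that Control 33 and Aged 34 stood far above the others. Aged 34 also had the most immune RNA, with the 8 macrophage markers, led by Lyz2, at 1839 CPM against 749 and 803 CPM in Aged 31 and 33, and the 4 B and plasma cell markers, led by Jchain, at 172 CPM against 21.2 and 5.86 CPM. In Aged vs Control, 4 of 8 macrophage, 3 of 4 B and plasma cell, 4 of 4 T cell, 5 of 5 tested erythroid, 4 of 5 endothelial and 2 of 4 tested pancreatic acinar markers were called higher, 2 of 4 tested neuron and glia markers and the 1 tested kidney and intestinal marker were called lower, and none of the 4 tested oviduct, 4 adipocyte and 4 smooth muscle markers was called by edgeR or had an unadjusted p under 0.05. DESeq2 called none of these either, but gave 2 of the oviduct markers no adjusted p. The other 2 tested acinar markers, Cpa1 and Cela2a, were lower in every Aged ovary than in every Control ovary, and DESeq2 called 1 of the 4 lower. Of the kidney and intestinal markers, Fabp2, Umod, Slc12a1 and Alpi had 3 counts or fewer in every ovary.

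The transporter genes spanned a wide range of levels. By mean FPKM over the 10 ovaries, 7 of the 61 were at 10 or more, 22 between 1 and 10, 16 between 0.1 and 1, and 16 below 0.1. The 5 highest, Slc7a5, Slc6a6, Slc7a8, Slc3a2 and Slc38a2, held 63.5% of the summed mean FPKM of all 61. Slc7a5 (ENSMUSG00000040010, chromosome 8, 121881150 to 121907694), the LAT1 exchanger of large neutral amino acids, led by this mean over the 10 ovaries. It was at 63.5 ± 11.4 FPKM in Control, 59.5 ± 11 FPKM in Aged and 63.5 ± 7.98 FPKM in Aged+CF (n = 4, 3 and 3 here and below). It did not lead in Aged, where the mean of Slc6a6 was 68.2 FPKM. Within Slc7a5, Control ovaries were at 297, 318, 222 and 224 CPM, Aged ovaries at 230.1, 271 and 311 CPM and Aged+CF ovaries at 232, 277 and 307 CPM. The 3 groups overlapped throughout, and the log2 fold change of Aged vs Control was 0.03 (SE 0.17, edgeR adjusted p = 0.929).

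**Figure D1:**
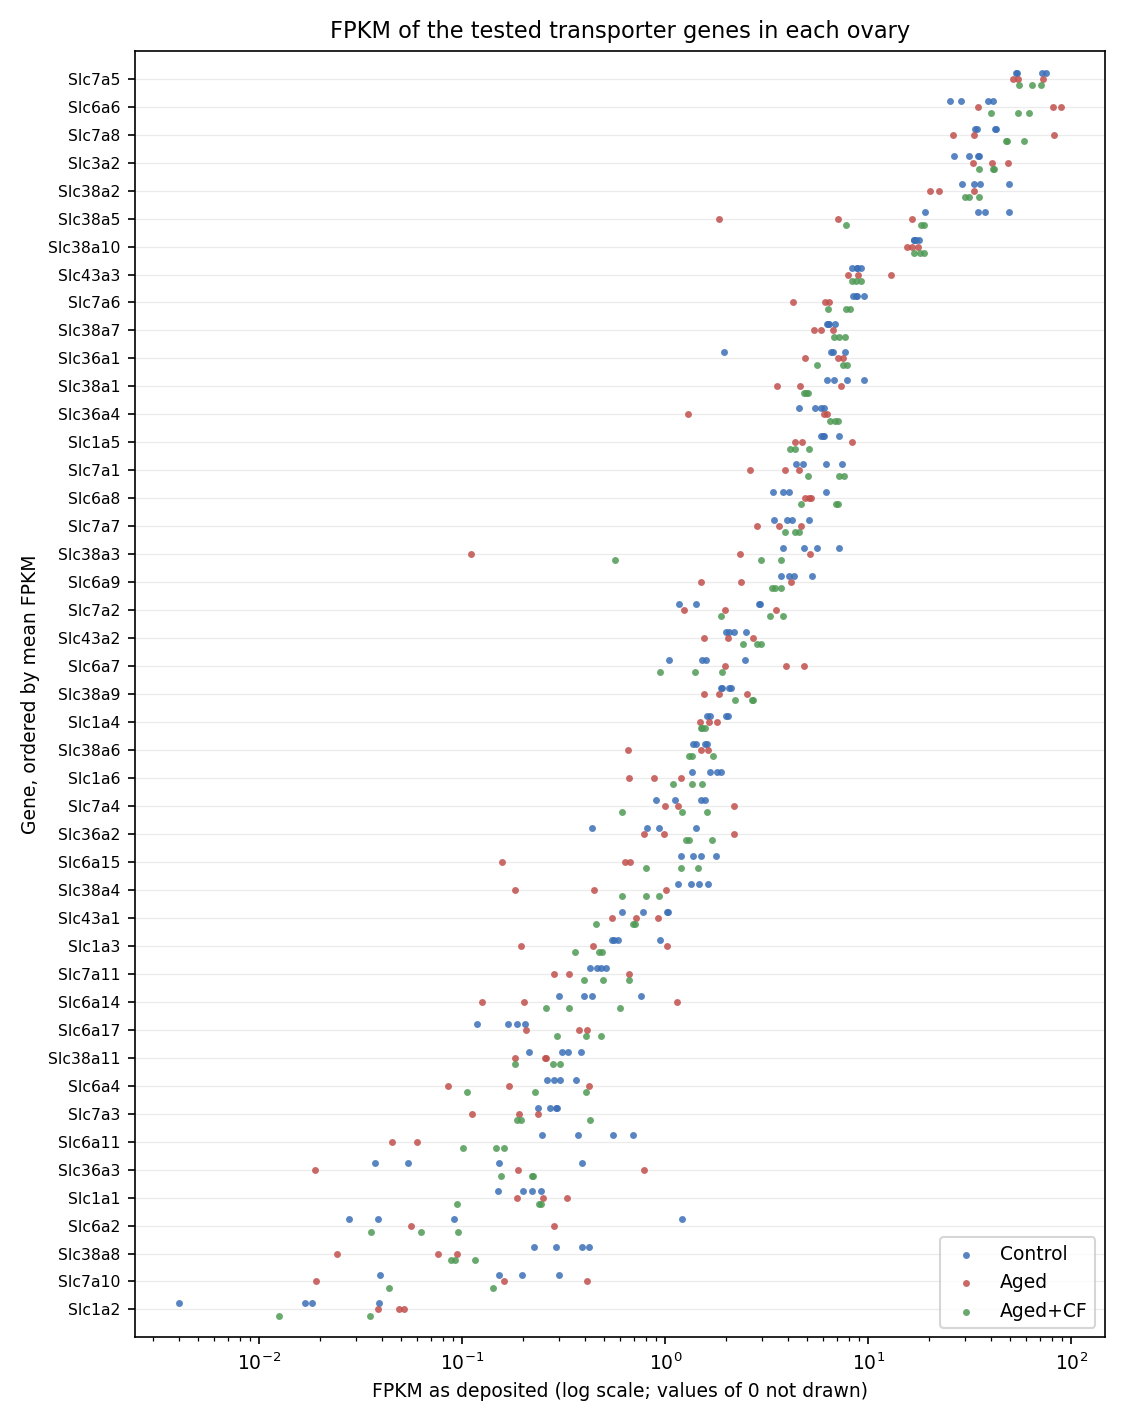
FPKM of the 45 tested transporter genes on a log axis, with a point for each ovary coloured by group and genes ordered by their mean FPKM. Slc7a5 is at the top with a mean of 62.3 FPKM and Slc1a2 at the bottom with 0.0264 FPKM, and values of 0 are not drawn.

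At the other end, 16 genes did not pass the filter and were not tested. Slc7a12 and Slc6a18 had no count in any ovary, and Slc7a13, Slc6a16, Slc7a14 and Slc6a5, the last of them the neuronal glycine carrier, had 3 counts or fewer in each. The others included Slc3a1, Slc6a13, Slc6a12, Slc7a15, Slc7a9, Slc6a3, Slc6a19, Slc6a21 and Slc1a7. Slc3a1 (ENSMUSG00000024131, chromosome 17, 85028376 to 85064236), the heavy chain of the cystine carrier of kidney and gut, had 4, 8, 7 and 9 counts in Control, 5, 4 and 5 counts in Aged and 15, 12 and 3 counts in Aged+CF. It overlaps Prepl on the other strand. Its partner Slc7a9 had at most 7 counts in an ovary, Slc6a13 at most 11, Slc6a21 at most 7, and Slc7a15, Slc6a19 and Slc1a7 at most 5. The heavy chain Slc3a2, by contrast, was at 31.9 ± 3.94 FPKM in Control, where Slc3a1 was at 0.178 ± 0.0544 FPKM.

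In Aged vs Control, 2 transporter genes were called higher, the taurine carrier Slc6a6 and the vesicular neutral amino acid carrier Slc6a17, and 2 were called lower, the GABA carrier Slc6a11 and the neutral amino acid carrier Slc38a8. Slc6a6 stood 2.27-fold and Slc6a17 2.12-fold higher in Aged, and Slc6a11 11.9-fold and Slc38a8 4.6-fold lower. Among all genes tested, 5.0% were called higher and 6.06% lower, so that 2 of 45 in each direction is close to the background. The median log2 fold change of the 45 genes was -0.03, and that of all genes tested was -0.0005. The CPM of all Aged ovaries lay above all Control ovaries in 3 of the 45 and below in 6, against 11.8% and 15.6% of all genes tested. DESeq2 called 9 of the 45, which are the 4 above with Slc6a7 higher and Slc1a6, Slc38a4, Slc38a5 and Slc6a15 lower, against 14.6% of all genes tested. The unadjusted p of edgeR was under 0.05 in 14 of the 45, against 31.6% of all. Without Aged 34, 9 of the 61 genes were called, with Slc38a1, Slc38a4, Slc6a9 and Slc6a15 lower and Slc6a7 higher beside the 4 above, and 9 were called when Control 33 and Aged 34, which had the highest oviduct markers, were left out together, with Slc38a2 among them and Slc6a17 not. The share of all genes tested that was called was then 16.1% and 14.4%. Without Control 32, 33 or 34 the count was 2, namely Slc6a11 and Slc38a8, and the share of all genes was 5.74%, 8.32% and 5.80%.

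**Figure D2:**
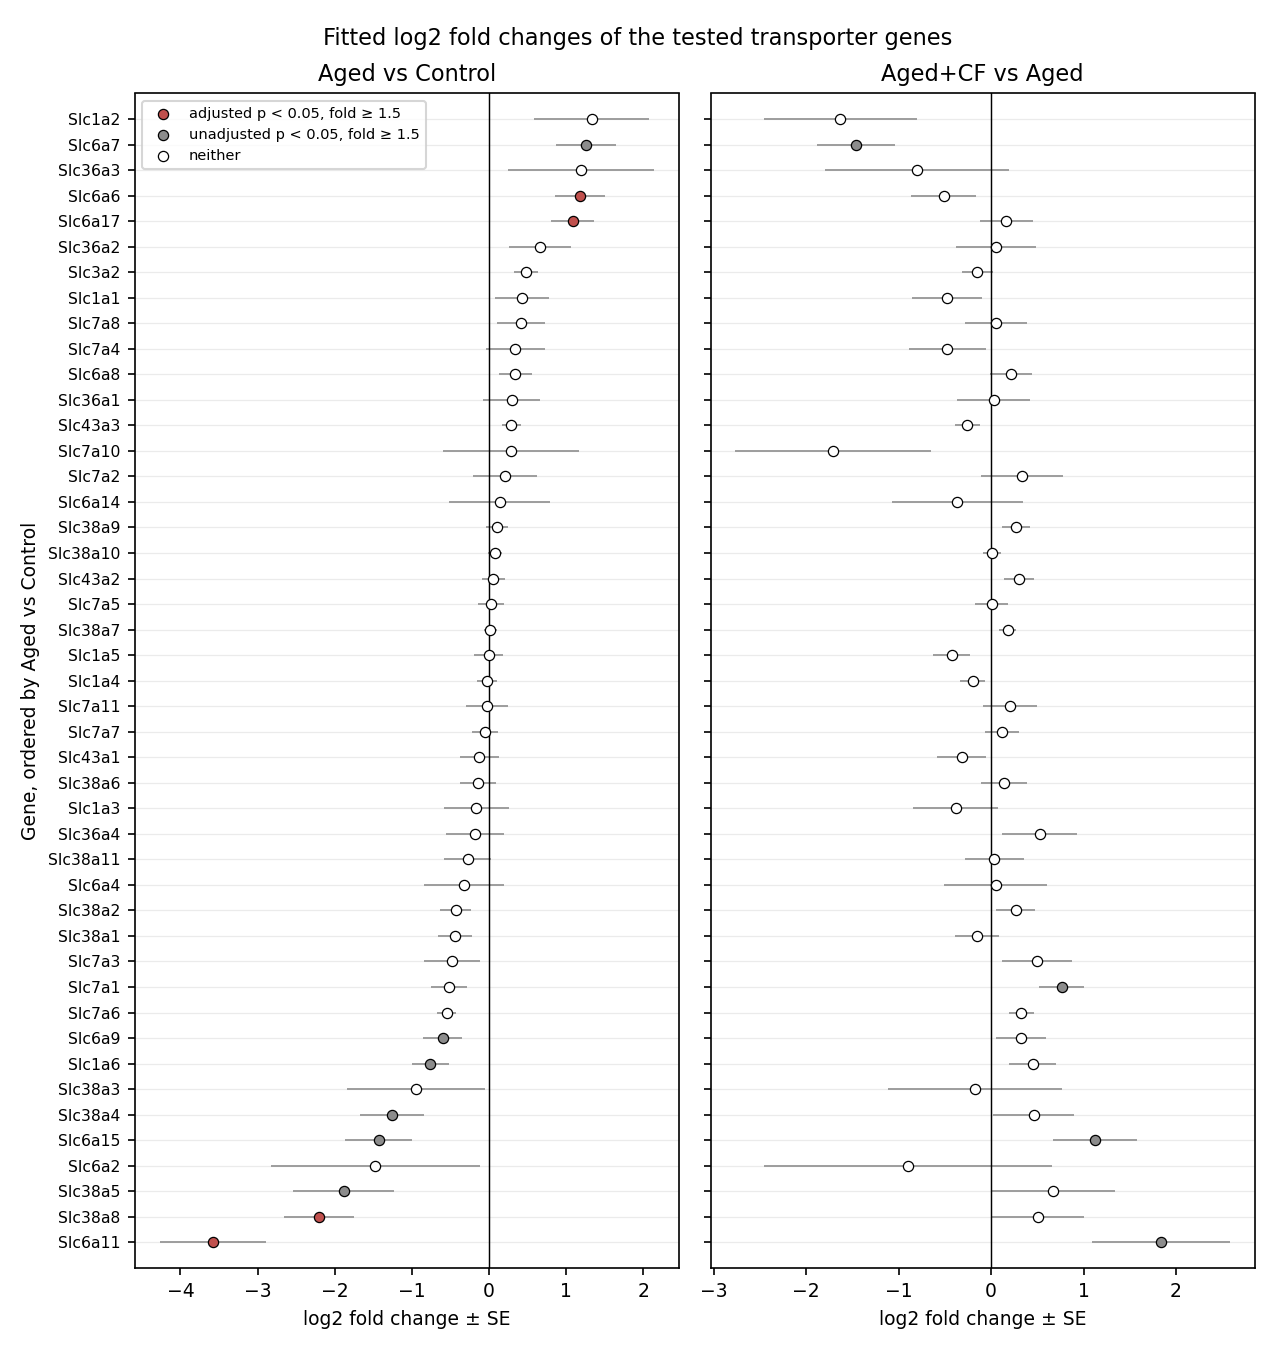
Fitted log2 fold changes with their SE for the 45 tested transporter genes in Aged vs Control (left) and Aged+CF vs Aged (right), in the order of the first comparison. Red points passed the adjusted p of 0.05 and the fold change of 1.5 (4 on the left and none on the right), and grey points passed with the unadjusted p only, among them the 4 on the right.

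The carriers of glycine, proline, taurine and creatine in family 6 include Slc6a6, which was next to Slc7a5 by FPKM. Slc6a6 (ENSMUSG00000030096, chromosome 6, 91684053 to 91759066) was at 428, 303, 403 and 265 CPM in Control, 907, 1101 and 376 CPM in Aged and 573, 667 and 434 CPM in Aged+CF. Aged 31 and 33 stood above every other ovary, while Aged 34 lay within the range of Control. The mean was 349.8 ± 78.3 CPM in Control, 795 ± 375 CPM in Aged and 558 ± 117 CPM in Aged+CF, and the log2 fold change of Aged vs Control was 1.18 (SE 0.33, edgeR adjusted p = 0.0369). Slc6a6 made up 13.4% of the summed CPM of the 61 genes in Control, and this share was 26.8% in Aged and 19.5% in Aged+CF. The call was lost on leaving out any of 7 ovaries, with an adjusted p of 0.0535, 0.0965, 0.0621 and 0.0962 without Control 31, 32, 33 and 34, 0.0936 and 0.117 without Aged 31 and 33 and 0.0567 without Aged+CF 30, whereas without Aged 34 the log2 fold change was 1.56 (adjusted p = 0.00297). The theca and luteal markers, given above, had the same order as Slc6a6 within each of the 3 groups, with Aged 33 highest and Control 34 lowest of all ovaries in both, and their part in the difference was not tested. Slc6a6 overlaps Gm44981 on the other strand, and the sources used here do not say if strand was used in counting, so reads of the pair cannot be told apart. In all, 12 transporter genes have an exon that overlaps a gene on the other strand and none has one on the same strand, the others being Slc38a10, Slc7a7, Slc6a9, Slc7a2, Slc43a2, Slc38a9, Slc7a4, Slc1a1, Slc3a1, Slc7a10 and Slc1a2.

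Of the other carriers of this role, the proline carrier Slc6a7 (ENSMUSG00000052026, chromosome 18, 60995380 to 61014222) had a pattern close to that of Slc6a6 in Aged. It was at 9.16, 5.74, 5.83 and 3.87 CPM in Control, 15.5, 21.2 and 7.55 CPM in Aged and 5.22, 7.29 and 3.61 CPM in Aged+CF, so that Aged 31 and 33 again lay above all other ovaries and Aged 34 did not. The log2 fold change of Aged vs Control was 1.26 (SE 0.39) and missed the threshold with an edgeR adjusted p of 0.0528. The summed theca and luteal markers had the same order as Slc6a7 within each of the 3 groups. In Aged+CF, however, the mean of Slc6a7 was below that of Control and the mean of these markers above it. Their part in the values of Slc6a7 was not tested. The glycine carrier Slc6a9, known for setting the volume of the early embryo, was at 41.2 ± 6.59 CPM in Control, 27.1 ± 12.4 CPM in Aged and 34.1 ± 1.36 CPM in Aged+CF (adjusted p = 0.139 in Aged vs Control), and it overlaps B4galt2, Ccdc24 and Gm17114 on the other strand. The creatine carrier Slc6a8 was at 41.6 ± 11.8, 52.8 ± 1.93 and 61.1 ± 14 CPM.

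Among the neutral amino acid carriers of family 6, Slc6a17 (ENSMUSG00000027894, chromosome 3, 107467543 to 107518018), known from synaptic vesicles, was called higher at a low level. It was at 3.38, 2.18, 3.04 and 3.71 CPM in Control, 8.05, 4.45 and 7.11 CPM in Aged and 7.45, 5.51 and 9.05 CPM in Aged+CF, and all 6 ovaries of the older mice lay above all 4 of Control. The means were 3.08 ± 0.658, 6.54 ± 1.87 and 7.34 ± 1.77 CPM, with a log2 fold change of 1.08 in Aged vs Control (SE 0.27, edgeR adjusted p = 0.0271). The adjusted p was 0.0511, 0.0702, 0.0599 and 0.051 without Control 31, 32, 33 and 34 and 0.0741 without Aged 31, each of which ended the call. Slc6a15 (ENSMUSG00000019894, chromosome 10, 103367783 to 103419377), a carrier of branched-chain amino acids and proline, was at 18.6, 14.6, 12.4 and 15.7 CPM in Control, 7.1, 8.32 and 1.71 CPM in Aged and 12.7, 8.79 and 15.7 CPM in Aged+CF. The Aged ovaries lay below all of Control, and the log2 fold change of -1.43 (SE 0.44) missed the threshold with an edgeR adjusted p of 0.0539. Without Aged 34, the lowest ovary, the log2 fold change was -0.95 and the adjusted p was 0.0239. Slc6a14, a carrier of neutral and basic amino acids, ranged from 0.494 CPM in Aged 33 to 3.92 CPM in Aged 34.

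Of the 7 carriers of GABA, betaine and monoamines, 3 passed the filter, Slc6a11, Slc6a2 and Slc6a4. Slc6a11 (ENSMUSG00000030307, chromosome 6, 114131241 to 114249952), the GABA carrier GAT3 of glia, had 21, 56, 36 and 52 counts in Control, 4, 5 and 0 counts in Aged and 14, 9 and 16 counts in Aged+CF. The groups did not overlap, with Control highest and Aged lowest. The level was 2.33 ± 1 CPM in Control, 0.197 ± 0.18 CPM in Aged and 0.69 ± 0.152 CPM in Aged+CF, and the log2 fold change of Aged vs Control was -3.58 (SE 0.69, edgeR adjusted p = 0.0118), a size that rests on 0 to 5 counts per Aged ovary. The calls of Slc6a11 and Slc38a8 were lost on leaving out none of the 10 ovaries. The betaine carrier Slc6a12 was not tested and had 19 counts in Aged 34 and at most 8 in any other ovary. Slc6a2, the noradrenaline carrier, had 3, 4, 150 and 11 counts in Control, 0, 6 and 34 counts in Aged and 7, 11 and 5 counts in Aged+CF, and the serotonin carrier Slc6a4 had between 8 and 44 counts. The dopamine carrier Slc6a3 had 6 counts in Control 33, 8 in Aged 34 and at most 1 elsewhere. For Slc6a2 and Slc6a3 the highest ovaries were thus those with the highest oviduct markers, and the part of oviduct tissue in these counts was not tested.

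Of the glutamate and aspartate carriers of family 1, Slc1a3 was at 6.19, 6.73, 10.5 and 6.36 CPM in Control, 5.31, 2.61 and 12 CPM in Aged and 5.39, 4.19 and 5.72 CPM in Aged+CF, again highest in Control 33 and Aged 34. Slc1a6 was at 3.77 ± 0.523, 2.22 ± 0.572 and 3.04 ± 0.465 CPM in the 3 groups, named in the order Control, Aged, Aged+CF here and below, with every Aged ovary below every Control ovary and an edgeR adjusted p of 0.0592. Slc1a1 had between 17 and 60 counts per ovary and Slc1a2, the main glutamate carrier of astrocytes, between 0 and 14. The neutral exchangers of this family, Slc1a4 and the glutamine carrier Slc1a5, stood above these by FPKM. Slc1a5 was at 41.7 ± 3.62 CPM in Control, 41.7 ± 13.4 CPM in Aged and 31 ± 3.86 CPM in Aged+CF, and Slc1a4 at 12.3 ± 1.38, 12.1 ± 0.732 and 10.5 ± 0.107 CPM. Neither was called by edgeR or DESeq2 in any comparison. Only in Aged+CF vs Control did 1 of them have an unadjusted p under 0.05, as did 14.3% of all genes tested.

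The sodium-coupled neutral carriers of family 38 were all tested, and 8 of the 11 had a lower fitted level in Aged, where 9491 of all 18956 genes tested had one. Of the 8, edgeR called 1 and DESeq2 called 3. Among all genes tested edgeR called 6.06% lower and DESeq2 called 1378 of 18956 lower, so that the 1 call of edgeR in 11 genes is close to the background. Their CPM summed to 978 ± 152 in Control, 756 ± 30.9 CPM in Aged and 829.6 ± 33.9 CPM in Aged+CF. The called gene, Slc38a8 (ENSMUSG00000034224, chromosome 8, 119479602 to 119501698), a glutamine carrier known from the retina, had a mean of 0.816 CPM over the 10 ovaries and is named because its values were seen. It had 17, 28, 25 and 35 counts in Control, 6, 7 and 2 counts in Aged and 9, 7 and 9 counts in Aged+CF, without overlap between Control and the older mice. Its level was 1.47 ± 0.406 CPM in Control, 0.321 ± 0.195 CPM in Aged and 0.447 ± 0.0609 CPM in Aged+CF (log2 fold change of Aged vs Control -2.20, SE 0.45, edgeR adjusted p = 0.0138). The summed oocyte markers were lowest in the Aged ovaries, and lowest of all in Aged 34, as were Slc6a11 and Slc6a15. Slc38a8 was lowest of all in Aged 34 too, but Aged 33 (0.494 CPM) lay above Aged+CF 32 (0.402 CPM) and Aged+CF 34 (0.422 CPM). The part of the oocytes in these differences was not tested.

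Slc38a2 (ENSMUSG00000022462, chromosome 15, 96687392 to 96699730), which many cells raise when amino acids are scarce, was the highest of family 38 by FPKM and stood at 320, 485, 275 and 345 CPM in Control, 229.8, 230.3 and 332 CPM in Aged and 341, 314 and 298 CPM in Aged+CF (edgeR adjusted p = 0.17 in Aged vs Control). The ranges of Control and Aged overlapped. Slc38a5 and Slc38a3 varied widely between ovaries. Slc38a5, which carries glutamine and other amino acids with side chains rich in nitrogen, was at 51.8, 136, 101 and 94.9 CPM in Control, 20.6, 52.8 and 5.18 CPM in Aged and 50.1, 21.8 and 52.7 CPM in Aged+CF, with an adjusted p of 0.0795 in Aged vs Control. Slc38a3, known from cumulus cells, where it takes up amino acids for the oocyte, was at 53.2, 81.5, 61.5 and 42.2 CPM in Control, 61.1, 30.8 and 1.27 CPM in Aged and 41.9, 6.55 and 33.8 CPM in Aged+CF. Aged 34 and Aged+CF 32 were low for both genes, and those ovaries also had the lowest summed granulosa markers of their groups, whose part was not tested. Slc38a4 was at 9.97 ± 1.4, 4.13 ± 3.01 and 5.72 ± 1.15 CPM, with all Aged ovaries below all of Control (adjusted p = 0.0684). In narrower ranges, Slc38a10 lay between 201 and 245 CPM and Slc38a7 between 39.5 and 51.1 CPM in all 10 ovaries, and Slc38a9, the arginine sensor of the lysosome, between 33.2 and 50.3 CPM. Slc38a7 and Slc38a9 were higher in every Aged+CF ovary than in every Control ovary, with an unadjusted p under 0.05 and edgeR adjusted p of 0.339 and 0.278. With Slc38a1 and Slc38a8, which were lower, 4 of the 11 genes reached that unadjusted p in Aged+CF vs Control, against 14.3% of all genes tested, and of the 11 edgeR called none and DESeq2 called 1. The glutamine carrier Slc38a1 lay between 71.8 and 184.6 CPM, Slc38a6 between 8.68 and 19.2 CPM and Slc38a11 between 1.26 and 2.57 CPM.

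The heavy chain Slc3a2 (ENSMUSG00000010095, chromosome 19, 8706882 to 8723369), also known as CD98, was at 169, 226, 199.5 and 225 CPM in Control, 224, 312 and 323 CPM in Aged and 227, 273 and 275 CPM in Aged+CF. The Aged ovaries reached higher than those of Control but overlapped them, and the log2 fold change of 0.48 (SE 0.15) had an edgeR adjusted p of 0.0578. Of its 6 light chains, none was called by edgeR or DESeq2 in Aged vs Control. An unadjusted p under 0.05 was reached by 1, Slc7a6, against 31.6% of all genes tested. Slc7a8 (ENSMUSG00000022180, chromosome 14, 54722209 to 54781946), the LAT2 exchanger of neutral amino acids, was at 194, 242, 189 and 243 CPM in Control, 158, 224 and 485 CPM in Aged and 276, 282 and 342 CPM in Aged+CF, with Aged 34 apart from the other ovaries (adjusted p = 0.402 in Aged vs Control). Slc7a6 (ENSMUSG00000031904, chromosome 8, 106168857 to 106198706), which exports basic amino acids in exchange for neutral ones and is named because its values were seen, was at 65.5, 73.4, 66 and 64.1 CPM in Control, 49.6, 38.2 and 49.9 CPM in Aged and 59.6, 49.7 and 63.6 CPM in Aged+CF. All Aged ovaries lay below all of Control, and the adjusted p of 0.019 passed the threshold, but the log2 fold change of -0.55 (SE 0.12) fell short of the fold change of 1.5, so it was not called. The cystine exchanger Slc7a11 was at 7.12 ± 0.593, 6.96 ± 2.96 and 8.05 ± 2.18 CPM and Slc7a7 at 22.1 ± 3.51, 21.4 ± 4.5 and 23.2 ± 2.24 CPM, and Slc7a10, a light chain known from brain, had between 0 and 24 counts per ovary.

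The cationic carriers of family 7 bring in arginine, lysine and ornithine. Slc7a1 (ENSMUSG00000041313, chromosome 5, 148327410 to 148399904), the widespread form, was at 74.8, 91.2, 57 and 53.2 CPM in Control, 50.3, 37.3 and 56.9 CPM in Aged and 61.2, 90.1 and 94.5 CPM in Aged+CF. Control overlapped both groups, and Aged and Aged+CF did not overlap. Slc7a2, induced in macrophages and liver, was at 37.5 ± 16.5, 43.5 ± 20.6 and 55 ± 17.9 CPM, and Slc7a4, which overlaps P2rx6 on the other strand, at 14.1 ± 3.56, 18 ± 9.44 and 13 ± 5.57 CPM. Slc7a3 lay between 0.776 and 2.59 CPM. None of the 4 tested genes of this role was called by edgeR or DESeq2 in Aged vs Control. An unadjusted p under 0.05 was reached by 1 of the 4, against 31.6% of all genes tested.

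The proton-coupled carriers and family 43 complete the set, and none of their 7 genes was called by edgeR or DESeq2 in any comparison, with 1 lacking an adjusted p of DESeq2 in Aged+CF vs Aged. An unadjusted p under 0.05 was reached by 1 of the 7 in Aged vs Control, none in Aged+CF vs Aged and 1 in Aged+CF vs Control. The shares of all genes tested were 31.6%, 16.3% and 14.3% in that order. The lysosomal carriers Slc36a1 and Slc36a4 each had a single low ovary. Slc36a1 was at 13.8, 47, 54.1 and 47.8 CPM in Control and between 41.1 and 57.7 CPM in the older mice, with Control 31 low, and Slc36a4 was at 49.5, 11.7 and 49.4 CPM in Aged and between 35.2 and 55.9 CPM elsewhere, with Aged 33 low. Slc36a2 lay between 1.43 and 7.28 CPM, and Slc36a3 had between 1 and 40 counts. Slc43a3, which carries purine bases and not amino acids, was at 53.2 ± 2, 65.1 ± 13.6 and 54.5 ± 2.17 CPM, and the neutral amino acid carriers Slc43a2 and Slc43a1 at 38.3 ± 3.49 and 7.35 ± 1.77 CPM in Control.

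**Figure D3:**
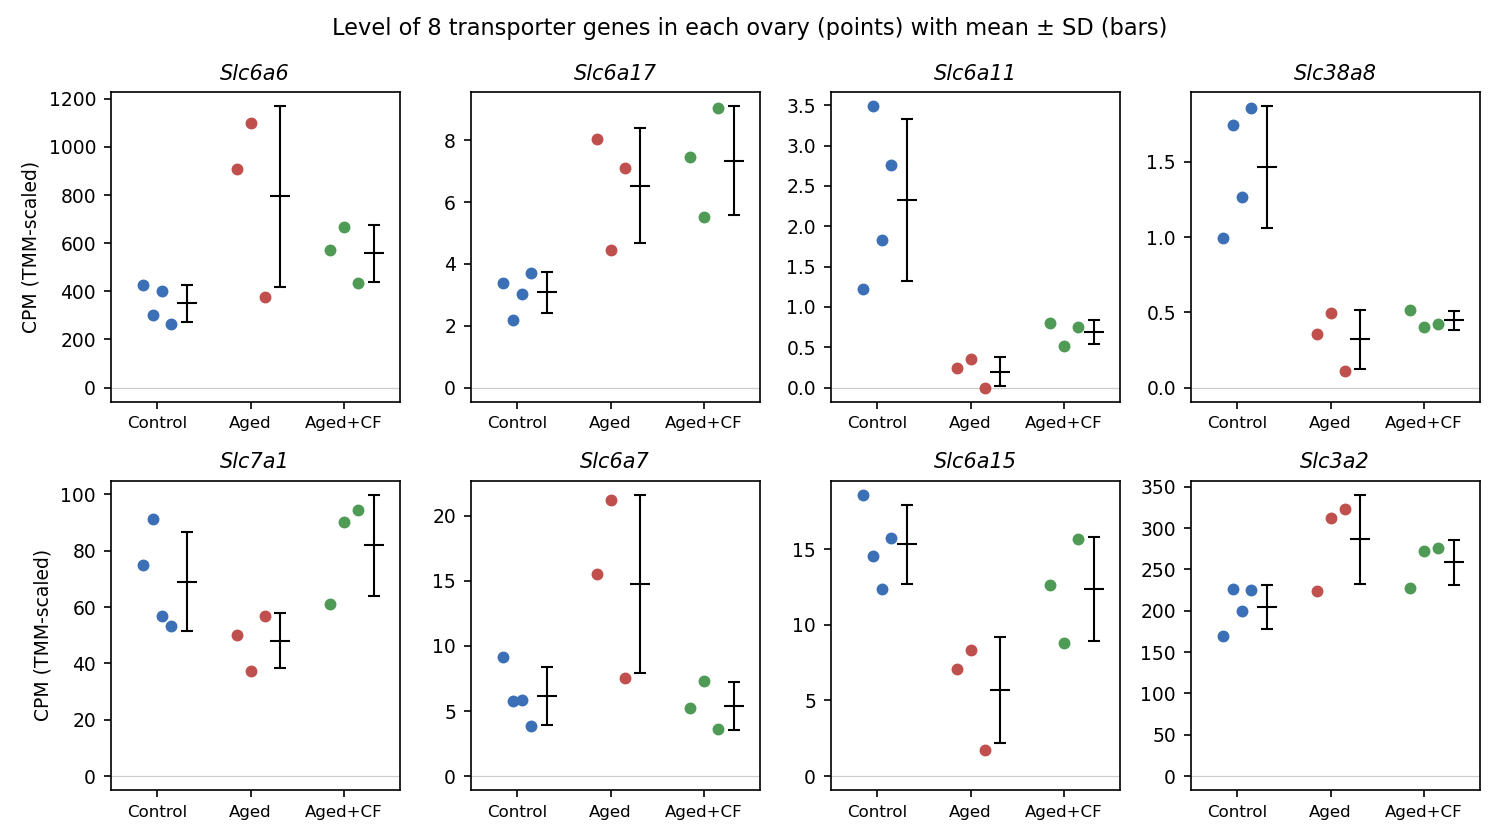
TMM-scaled CPM of 8 transporter genes in Control (n = 4), Aged (n = 3) and Aged+CF (n = 3), with a point for each ovary and the mean ± SD beside the points. In Slc6a6 and Slc6a7 an Aged ovary, number 34, lies near Control while the other Aged ovaries are higher, and in Slc6a11 and Slc38a8 all 6 ovaries of the older mice lie below all 4 of Control.

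In Aged+CF vs Aged, edgeR called no transporter gene after adjustment, against a background of 0.00528% of all genes tested in either direction. The unadjusted p was under 0.05 in 5 of the 45 genes, against 16.3% of all genes tested, and the Wald test of DESeq2 called 1, Slc6a7, against 2.33%. DESeq2 gave 9 of the 45 no adjusted p here. At an unadjusted p under 0.05 and a fold change of 1.5, Slc7a1, Slc6a15 and Slc6a11 were higher in Aged+CF and Slc6a7 was lower. This is 3 of 45 against 3.91% of all genes tested in the first direction and 1 of 45 against 4.05% in the second. The median log2 fold change was 0.05 for the 45 genes and -0.02 for all genes tested. The 2 groups did not overlap in 5 genes that were higher and 4 that were lower, against 10.2% and 8.39% of all genes tested. Leaving out Aged 34 changed the counts to 1 gene with the adjusted p, Slc6a7, and to 8 with the unadjusted p, while the shares of all genes were 2.87% and 12.2%. Without both Control 33 and Aged 34 they were 0 and 8, with 1.51% and 12.1% of all genes.

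Slc6a7, the proline carrier, was the only gene of the 4 with a lower level in Aged+CF. The 3 Aged+CF ovaries, at 5.22, 7.29 and 3.61 CPM, lay below the 3 Aged ovaries, at 15.5, 21.2 and 7.55 CPM, and Aged+CF 32 and Aged 34 were close. The log2 fold change was -1.46 (SE 0.42, edgeR adjusted p = 0.18). Slc7a1 had a log2 fold change of 0.77 (SE 0.24, edgeR adjusted p = 0.204), from 48.1 ± 9.94 CPM in Aged to 81.9 ± 18.1 CPM in Aged+CF. Slc6a15 had one of 1.12 (SE 0.46, edgeR adjusted p = 0.272) and Slc6a11 one of 1.84 (SE 0.74, edgeR adjusted p = 0.269). The 4 genes were chosen for the lack of overlap between Aged+CF and Aged as well, and in none did the difference pass after adjustment over all genes. Both this comparison and Aged vs Control use the same 3 Aged ovaries. Markers of several other cells had a lower fitted level in Aged+CF than in Aged, as Slc6a7 had, and edgeR called no marker of any list. The 6 erythroid markers, led by Hba-a1, summed to 418, 638 and 265 CPM in Aged and 145, 109 and 260.1 CPM in Aged+CF, with 4 of the 5 tested lower at an unadjusted p under 0.05 and 4 called lower by DESeq2. The 4 B and plasma cell markers summed to 6.31, 6.2 and 3.75 CPM in Aged+CF, with all 4 lower at that p against Aged and DESeq2 calling the 2 to which it gave an adjusted p, and the 4 T cell markers, led by Cd3e, to 8.59, 7.83 and 21.6 CPM in Aged and 4.13, 5.34 and 5.62 CPM in Aged+CF, with 3 lower at that p, while DESeq2 gave 2 of the 4 no adjusted p and did not call the others. Of the theca and luteal markers 6 of 8 had a lower fitted level, 2 at that p and 1 called by DESeq2, and of the endothelial markers 5 of 5, 3 and 1. Lower at that p were also 2 of 8 macrophage, 2 of 4 acinar and 1 of 4 oviduct markers, while 1 granulosa marker was lower and 1 higher and 1 neuron and glia marker was higher. DESeq2 called none of the 8 macrophage and 9 granulosa markers, 1 of the 3 acinar and 1 of the 2 neuron and glia markers to which it gave an adjusted p, and it gave none of the oviduct markers an adjusted p. The part of these cells in the values of Slc6a7 was not tested. The summed oocyte markers of Aged+CF lay above those of Aged in every ovary, none of the 13 was called by edgeR, 5 had an unadjusted p under 0.05 and DESeq2 called 1 and gave 2 no adjusted p, and their part in the values of Slc6a15 and Slc6a11 was not tested.

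In Aged+CF vs Control, edgeR called no transporter gene after adjustment, against 0.137% of all genes tested called higher and 0.0422% lower. The unadjusted p was under 0.05 in 9 of the 45 genes, against 14.3% of all genes tested, and the Wald test of DESeq2 called 3, Slc6a17, Slc6a11 and Slc38a8, against 2.79%. Slc6a17 had a log2 fold change of 1.25 (SE 0.27, edgeR adjusted p = 0.109). Slc38a8 had a log2 fold change of -1.70 (SE 0.42, edgeR adjusted p = 0.137) and Slc6a11 one of -1.74 (SE 0.58, edgeR adjusted p = 0.23). For Slc6a6 it was 0.67 (SE 0.32, edgeR adjusted p = 0.375), and all 3 Aged+CF ovaries lay above all 4 of Control. Aged 34 is in neither group here but bears on the filter, which sets the genes over which p is adjusted, and on the shared spread. Without it 19342 genes were tested and 1 transporter gene was called, Slc38a8, with 1.80% of all genes called. In this comparison edgeR called no marker of any list, while an unadjusted p under 0.05 was reached by 10 of 13 oocyte and 3 of 9 granulosa markers, all lower in Aged+CF, and by 5 of 8 theca and luteal, 5 of 8 macrophage and 4 of 5 tested erythroid markers, all higher. DESeq2 called 1, 0, 2, 2 and 0 markers of these lists in that order. The unadjusted p was also under 0.05 in 1 T cell marker, which was higher, and in 1 neuron and glia marker. The same held for 1 oviduct marker and the 1 tested kidney and intestinal marker, both lower. DESeq2 called none of the T cell, neuron and glia, oviduct and kidney and intestinal markers, but gave 2 oviduct markers no adjusted p. The part of all these cells in the values of these transporter genes was not tested. The summed CPM of all 61 genes was 2603 ± 187 in Control, 2966 ± 171 CPM in Aged and 2855 ± 66.6 CPM in Aged+CF.

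The genes that respond to amino acids or use them were taken from lists. Of 30 tested genes of the amino acid response, which take in Gcn2, Atf4 and their targets, none was called higher in Aged by edgeR or DESeq2, 3 were called lower (5.0% and 6.06% of all genes tested were called higher and lower by edgeR) and 11 had an unadjusted p under 0.05 (31.6% of all genes tested had one), with a median log2 fold change of -0.02. The 3 called were Psat1 and Phgdh, enzymes of serine synthesis, and Aldh18a1, which makes a precursor of proline. Psat1 was at 17.8 ± 2.53 CPM in Control, 9.11 ± 2.26 CPM in Aged and 12.1 ± 2.36 CPM in Aged+CF (log2 fold change -0.96, edgeR adjusted p = 0.017). Aldh18a1 was at 69.3 ± 2.01, 44.5 ± 6.08 and 50.9 ± 8.96 CPM (adjusted p = 0.0145), a call lost to the limit on fold change without Aged 31 or 33, at log2 fold changes of -0.56 and -0.55. Phgdh was at 39.3 ± 5.11, 25 ± 7.15 and 26.9 ± 1.8 CPM (adjusted p = 0.0399), and its call was lost without any ovary other than Control 31 and Aged 34, with an adjusted p between 0.0555 and 0.106. All Aged ovaries lay below all Control ovaries in these 3 genes. Another 2 genes of the list passed the adjusted p but fell short of the fold change of 1.5, and both are named because their values were seen. Aars, which loads alanine onto its tRNA, was higher in every Aged ovary than in every Control ovary, at 172 ± 5.16, 244 ± 23 and 212 ± 20.1 CPM (log2 fold change of Aged vs Control 0.50, SE 0.09, edgeR adjusted p = 0.0109), and it overlaps Exosc6 on the same strand and Gm24103 on the other. Asns, which makes asparagine, was lower in every Aged ovary, at 20.6 ± 1.89, 13.8 ± 0.86 and 15.1 ± 2.58 CPM (log2 fold change -0.58, adjusted p = 0.0258).

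Of 34 tested genes by which mTORC1 senses amino acids, 2 were called higher and 2 lower in Aged, close to the 5.0% and 6.06% of all genes tested, with a median log2 fold change of 0.13. Tfeb, the transcription factor of lysosomal genes that mTORC1 restrains, was at 14.3 ± 3.62 CPM in Control, 28.9 ± 2.58 CPM in Aged and 19.8 ± 1.28 CPM in Aged+CF (log2 fold change of Aged vs Control 1.01, SE 0.18, edgeR adjusted p = 0.00876). Wdr59, a subunit of the GATOR2 complex, was at 59.6 ± 6.93, 35.2 ± 5.8 and 51.3 ± 5.3 CPM (log2 fold change -0.76, SE 0.14, adjusted p = 0.0106). Tfeb was higher in every Aged ovary than in every Control ovary and Wdr59 lower. Lamtor4, a subunit of the Ragulator complex, was at 29.4 ± 1.16, 44.3 ± 9.65 and 34.8 ± 3.94 CPM (adjusted p = 0.0226), lost without Control 31, 32 or 34 or Aged 33, with an adjusted p between 0.0365 and 0.0608 and a log2 fold change of 0.42 without Aged 33. The remaining called gene, the GTPase Rragb, named because its values were seen, was at 10.2 ± 2.06, 5.59 ± 1.56 and 8.41 ± 1 CPM (adjusted p = 0.035), and its call was lost without any ovary other than Control 31, Aged 33 and Aged+CF 32, with an adjusted p between 0.0567 and 0.0891.

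Of 24 tested genes of glutamate, GABA, glycine, taurine, creatine and branched-chain amino acid metabolism, 1 was called higher and 2 lower in Aged, close to the background of 5.0% and 6.06%, with a median log2 fold change of 0.06. The creatine synthesis enzyme Gamt was at 67.8 ± 6.6, 108 ± 31.1 and 93.2 ± 18.9 CPM (adjusted p = 0.044), and its call was lost without any ovary other than Aged 34 and Aged+CF 32, with an adjusted p between 0.0560 and 0.134. Gad1 and Gad2, which make GABA, did not pass the filter.

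Of 20 tested genes for other amino acid, peptide and vesicular transporters, 1 was called higher and 2 lower in Aged, again close to 5.0% and 6.06% of all genes tested, with a median log2 fold change of 0.05. Slc18a2, which loads monoamines into vesicles, was at 236, 315, 206 and 278 CPM in Control, 51.4, 57.1 and 15 CPM in Aged and 82.8, 115 and 122 CPM in Aged+CF. The 3 groups did not overlap, with Control highest and Aged lowest, and the log2 fold change of Aged vs Control was -2.65 (SE 0.41, edgeR adjusted p = 0.00578). Between Aged+CF and Aged it was 1.37 (SE 0.40, adjusted p = 0.181). It was lowest in Aged 34, as were the oocyte markers, whose part was not tested. Slc17a5, the sialic acid carrier of lysosomes, was at 24.3 ± 3.57, 36.5 ± 5.76 and 30 ± 2.25 CPM (adjusted p = 0.0259), lost without Control 31, 32 or 34 or Aged 33, with an adjusted p between 0.0578 and 0.0674. Slc6a20b, an imino acid carrier whose symbol lies outside the pattern of the 61 genes, was at 0.928 ± 0.264, 0.235 ± 0.132 and 0.577 ± 0.301 CPM (adjusted p = 0.0291), lost without Control 31, 32 or 34 or Aged 31 or 33, with an adjusted p between 0.0506 and 0.0945. Of these 4 lists edgeR called no gene in Aged+CF vs Aged, an unadjusted p under 0.05 was reached by 2, 7, 5 and 5 genes in the order above, and DESeq2 called 2, 0, 1 and 3 and gave 1, 0, 2 and 3 no adjusted p, where the shares of all genes were 16.3% and 2.33%. Against Control, edgeR again called none in Aged+CF, 7, 3, 5 and 4 genes had an unadjusted p under 0.05, and DESeq2 called 1, 0, 0 and 1, where the shares were 14.3% and 2.79%.

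Genes of the amino acid response are often driven through the element TGATGNAA, bound by Atf4 with a C/EBP partner, so its letters were searched on both strands of the promoter windows of RefSeq on GRCm38.p6, each from 250 bases before to 50 bases after a transcription start. A window was found for 43 of the 61 genes, and 4 of the 43 (9.30%) held the element in a window, against 4.51% of 27025 genes with a window. A gene with several windows has more chances to hold it, and by window the share was 3.97% of all 32851. A match is a description of the letters only. They were Slc1a4, Slc6a21, Slc7a7 and Slc7a11. The windows of the 3 that passed the filter on low counts are given here, 5′ to 3′ on the strand of the gene (the minus strand in all 3) with the element in capitals, since they show where those letters lie in carriers of different exchange systems. For Slc1a4 it is chr11:20332664-20332963, with the element beginning 4 bases before the start. For Slc7a7 it is chr14:54417895-54418194, with elements beginning 141 bases and 1 base before the start (the same letters as those 1 base before this start lie 243 bases before another start of Slc7a7, in a window that overlaps this one), and for Slc7a11 it is chr3:50443564-50443863, with elements beginning 66 and 47 bases before the start.
Slc1a4: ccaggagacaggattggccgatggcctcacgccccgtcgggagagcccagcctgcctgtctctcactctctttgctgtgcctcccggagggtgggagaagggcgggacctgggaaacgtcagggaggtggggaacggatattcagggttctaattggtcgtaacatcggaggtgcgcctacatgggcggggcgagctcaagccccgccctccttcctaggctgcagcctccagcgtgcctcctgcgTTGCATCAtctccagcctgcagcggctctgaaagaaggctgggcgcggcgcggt
Slc7a7: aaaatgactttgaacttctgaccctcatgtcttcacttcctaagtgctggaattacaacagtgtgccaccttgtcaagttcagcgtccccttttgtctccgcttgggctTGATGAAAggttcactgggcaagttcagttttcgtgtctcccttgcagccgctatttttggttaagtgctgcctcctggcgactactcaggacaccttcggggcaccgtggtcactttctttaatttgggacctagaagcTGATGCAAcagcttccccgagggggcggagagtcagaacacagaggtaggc
Slc7a11: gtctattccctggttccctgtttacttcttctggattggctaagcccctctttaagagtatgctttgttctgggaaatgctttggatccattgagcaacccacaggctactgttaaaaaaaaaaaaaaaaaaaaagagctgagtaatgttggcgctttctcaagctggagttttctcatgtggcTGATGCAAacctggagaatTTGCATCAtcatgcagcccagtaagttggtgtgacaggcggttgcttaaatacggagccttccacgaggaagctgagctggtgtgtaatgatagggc
None of these 3 genes was called in a comparison. Their log2 fold changes of Aged vs Control were -0.03 (SE 0.13), -0.05 (SE 0.17) and -0.03 (SE 0.27) in that order. Slc7a7 overlaps Oxa1l on the other strand.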

How the data were processed

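Whole ovaries were sequenced, 4 Control, 3 Aged and 3 Aged+CF, and were assigned to groups by their titles. Read counts and the FPKM of each gene were deposited, made with TopHat and Cufflinks 2.1.1 on GRCm38.p4 by the submitters' processing notes. The annotation, the counting tool and the use of strand are not given in the sources used here. In all 36618 genes with a count, the deposited FPKM equals the count over the column total and over a gene length, which agrees between ovaries within 0.1%. Symbols are those of the table, and positions and exon overlaps on GRCm38 come from GENCODE M21, which holds 55141 of the 55487 identifiers and all 61 transporter genes.

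Counts were filtered with filterByExpr by group, scaled by TMM and fitted with edgeR 4.0.16 in R 4.3.3 to all 10 ovaries with a mean per group. The code was tested on simulated counts. The test is two-sided, SE is the log2 fold change divided by the root of F, and pairs of libraries of a group were checked for duplication, with none found. Alternatives were no filter, the RLE scaling of edgeR in place of TMM and the Wald test of DESeq2 1.42.0. Others were only the groups compared, the replicate number as a block, a fold of linear means and each ovary left out in turn. Leaving out Control 33 and Aged 34 together was chosen after the data were seen. A gene with 3 counts or fewer in every ovary was treated as near the floor of the depth. Each p of the main fit sets a difference of group means against a spread between ovaries estimated from all 10 together.

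The transporter genes, roles, pathway genes and markers were chosen with earlier results of these data known. Named in full were genes called in Aged vs Control or Aged+CF vs Control with a mean of at least 1 CPM (at most 12 rises and 12 falls), those past the unadjusted p and fold without overlap in Aged+CF vs Aged, the 5 highest by FPKM, the 2 heavy chains and at most 3 called genes of each pathway list by p. Other genes are described by their range or were chosen after their values were seen. Some genes of the set and of the lists are not reported here.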

Additional observations from a re-analysis of the deposited data

Results flagged for a closer look

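In Control, the only group of 4, each of the 45 tested transporter genes was checked for an ovary whose distance to the nearest other ovary was more than the critical share of the range of the group given by Dixon's test for 4 samples. In 2 genes such an ovary was found, which is no more than chance gives, about 1 in 20, and such an ovary was found in 6.38% of the 18951 genes tested that had unequal values in Control. Both were Control 33. Slc6a2, the noradrenaline carrier, was at 7.606 CPM in Control 33 and between 0.175 and 0.583 CPM in the other Control ovaries. Slc1a3, a glutamate carrier, was at 10.5 CPM in Control 33 and between 6.19 and 6.73 CPM in the others. Control 33 also had the highest sum of oviduct markers, 345 CPM, and Aged 34, with the next highest, had the most Slc6a2 of the Aged group (1.88 CPM) and the most Slc1a3 (11.97 CPM). Whether oviduct tissue carried these reads was not tested.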

How the results depend on the processing

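The count of transporter genes called in Aged vs Control was 4, and it was 9 with the Wald test of DESeq2, 2 with only the groups compared in the fit (1440 of all 18513 genes tested there were called, 2096 of 18956 with all groups) and 9 without Control 33 and Aged 34 together, and it ranged from 2 to 9 on leaving out an ovary. The 4 genes were called again without the filter on low counts, with the RLE scaling of edgeR and with the fold of linear means. In Aged+CF vs Aged the count of 0 was 1 with the Wald test and ranged from 0 to 1 without an ovary, and the count of 4 with the unadjusted p was 2 with only the groups compared (1011 of all 18053 genes, against 1509 of 18956), 8 without Control 33 and Aged 34 and from 3 to 8 without an ovary. In Aged+CF vs Control the count of 0 was 3 with the Wald test, 2 with only the groups compared (487 of all 18500 genes, against 34 of 18956) and from 0 to 1 without an ovary. The cause of these shifts was not tested, other than that fewer ovaries enter the fit of only the groups compared.

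Ovaries with the same number share only that number and come from different mice. The correlation of their deviations from the group means was 0.138, -0.185 and 0.0696 in the 3 pairs of Control and Aged. It was -0.0874 for Control 32 with Aged+CF 32 and 0.153 for Control 34 with Aged+CF 34. Between Aged 34 and Aged+CF 34 it was -0.0613. Thus not every ovary correlated best with its own number. With the replicate number as a block Aged vs Control had 0 called, Aged+CF vs Aged 0 and, with the unadjusted p, 3, and Aged+CF vs Control 0. Of all 18956 genes, 80, 0, 888 and 9 were then called in that order, so that a count of 0 among the transporter genes is close to the background. Over all alternatives, no called gene changed direction, and the adjusted p of Aged vs Control ranged from 0.00297 to 0.117 for Slc6a6, from 0.00165 to 0.0891 for Slc6a17, from 7.42e-06 to 0.09996 for Slc6a11 and from 0.00094 to 0.1075 for Slc38a8. Some low genes, Slc6a11 among them, did not pass the filter when only Aged and Aged+CF were fitted and have no value there. At this depth 3 counts are between 0.141 CPM, in Aged+CF 34, and 0.212 CPM, in Aged 33. Of the genes that did not pass the filter with all 10 ovaries, Slc6a3 passed the unadjusted p and fold in Aged+CF vs Aged without the filter, and Slc3a1 did so without Aged+CF 34.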
